A study of Gallus gallus with 4 samples.

Results

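The SLC solute carriers are a large superfamily of membrane transporters. Their genes are named by family number, letter and member, so every feature whose symbol had that form was taken as a member. This gave 233 SLC genes of the 15271 genes measured in single blood leukocytes of the chicken (Gallus gallus). Of these, 5 carry the name without being carriers: SLC4A1AP (an adaptor protein), SLC9A3R1 and SLC9A3R2 (scaffold proteins of sodium/proton exchangers), SLC7A6OS (a gene on the opposite strand of SLC7A6) and SLC2A4RG (a DNA-binding regulator). They were kept in every count of SLC genes and are named where they appear.

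Solute carriers move amino acids, sugars, organic acids, ions, metals, vitamins and nucleotide sugars across the plasma membrane and the membranes of organelles. Some couple the substrate to a sodium, proton or potassium gradient, others exchange it for a second substrate, and others let it follow its own gradient. The SLC25 family sits mostly in the inner membrane of mitochondria, and the SLC35 family mostly in the Golgi and endoplasmic reticulum. In blood cells of mammals, well-known examples are the serotonin transporter of platelets and the chloride/bicarbonate exchanger of red blood cells.

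The cells came from the blood of clinically healthy, untreated female laying hens aged 24 weeks, with 1 library per hen. The labels give the hybrid as Bovans Robust, while the methods of the study name Dekalb White. Leukocytes were separated on Ficoll, which reduces red blood cells, and cells that bound an antibody to the thrombocyte integrin CD41/61 were depleted, so the thrombocyte-like cells described here are those that escaped the depletion. The study also removed cells with more than 5% of globin gene expression, so the red blood cell-like cells described here are those that passed this filter. Of the 4 libraries, the fourth shared 4890 of its 4894 barcodes with the third, and of the SLC entries above 0 in the shared cells 1.41% differed, so it was counted as a copy of library 3 and left out. Libraries 1, 2 and 3 held 4452, 2697 and 4893 cells, and other pairs of libraries shared at most 9 barcodes.

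The deposited values are whole numbers that the authors had corrected for depth, with a median total per cell between 2318.5 and 2448 in the 3 libraries. They are treated as scores, not as read counts. Here a level is the sum of a gene's values over the cells of 1 group in 1 library, scaled to a total of 10000, and every mean is over 3 libraries. Such a level is a share of a group's RNA, so levels are compared between cell groups for the same gene and never between genes. A level of 0 was given a limit, a summed value of 3 over all cells of the group, which was 0.00197 per 10000 in T-like cells and 0.222 in red blood cell-like cells. These limits cover counting error only, and p-values measure the spread between the libraries of 3 hens.

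Cells were clustered without the SLC genes and grouped by lineage markers into 8 groups. These were 1601 monocyte/heterophil-like, 2273 B-like, 6289 T-like, 846 cytolytic-like, 410 thrombocyte-like, 239 eosinophil-like, 55 basophil-like and 79 red blood cell-like cells. Markers of monocytes and of heterophils were met by the same 2 clusters, so these 2 cell types were not separated here and form 1 group. The paper clustered its monocytes again and described a subcluster that likely held mainly heterophils, a step not taken here. The summed monocyte markers were at 45.8 to 74.6 per 10000 in that group and at most at 5.92 in a library of any other group. The basophil markers were at 535 to 620 in basophil-like cells and at most at 16.1 elsewhere. However, basophil-like cells also held T cell markers at 43.4 to 51.9, mainly CD3D (37.1 against 4.67 in T-like cells). Cytolytic markers were at 40.6 to 59.6 in them, mainly ZEB2 (33.7), with GZMA at 8.99 against 2.48 in cytolytic-like cells. Gamma-delta T markers were at 26.3 to 35.6, mainly INPP5A (21.2). ZEB2 and INPP5A were not particular to these groups, as thrombocyte-like cells held them at 35.3 and 23.9 and monocyte/heterophil-like cells held ZEB2 at 41.7. Of the other T cell markers CD3E was also higher than in T-like cells, whereas CD247, BCL11B, CD28 and THEMIS were lower. The other cytolytic markers were lower than in cytolytic-like cells. By CD3D, CD3E and GZMA the basophil-like group may be mixed. Globin and other red blood cell markers were at 303 to 328 in red blood cell-like cells and at 12.6 to 13.6 in thrombocyte-like cells. In the latter the sum was mainly TAL1 (9.54), with the globin HBBA at 1.99 against 158 in red blood cell-like cells. Median totals were lower in the thrombocyte-like (1918.5), eosinophil-like (1991) and red blood cell-like cells (1655) than in the other groups (2416 to 2588).

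Of the 233 SLC genes, 181 had a mean level of at least 0.1 in some group and 52 did not. Just below this level were SLC25A10 (0.0997), SLC35D2 (0.0984) and SLC25A29 (0.0944), and just above it were SLC13A1 (0.102), SLC25A47 (0.104) and SLC19A1 (0.107). No SLC gene was at 0 in every profile. A gene was called restricted to a group when limma put it above each of the other 7 groups by at least 1 on the log2(level + 0.1) scale, with the largest p over these pairs under 0.05 after Benjamini-Hochberg adjustment. Of 203 SLC genes tested, 9 were restricted, and the background over all 12401 genes tested was 2.09%. The monocyte/heterophil-like cells held 7 of them (background 0.976%): SLC2A9, SLC16A7, SLC1A6, SLC24A2, SLC8A1, SLC2A5 and SLC35E4. Thrombocyte-like cells held the other 2 (background 0.903%), SLC6A4 and SLC9B2. Of these genes, SLC16A7, SLC1A6, SLC2A5, SLC35E4 and SLC6A4 reached the filter mean of 0.05 only in the group where they were called. For them the filter and the call used the same values. With no filter on low levels the number of SLC genes called fell to 5 (background 1.22%). With hen as a block, or without any one of the libraries 1, 2 and 3, no gene at all was called, where 46, 41, 42 and 32 SLC genes had an unadjusted p under 0.05 and a log2 difference of at least 1. Only SLC6A4 was called when cells were grouped by a marker gate in place of clusters (background 0.292%). A single fit over all groups called 39 SLC genes, 19.2% of those tested, where the background rose to 13.8%. Leaving out the basophil-like and red blood cell-like groups called 16, or 8.29%, near the background of 7.83%.

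No SLC gene was called restricted to B-like, T-like, cytolytic-like, eosinophil-like, basophil-like or red blood cell-like cells by limma with Benjamini-Hochberg adjustment. In simulated data this rule missed most of the genes raised in 1 group, so the lack of calls does not show that none is restricted. At an unadjusted p under 0.05 and a log2 difference of at least 1, the counts were 3, 4, 0, 3, 5 and 14 in that order. The background of these unadjusted calls over all genes was 1.31%, 1.06%, 0.831%, 1.44%, 1.51% and 4.94%, and that of the adjusted calls was 0.0564%, 0%, 0.0564%, 0%, 0.0887% and 0.00806%. Without adjustment, monocyte/heterophil-like cells had 12 SLC genes (background 3.26%) and thrombocyte-like cells 9 (background 3.62%).

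The levels were also described without a test. A gene was called separate when all 3 libraries of 1 group lay above every library of the other 7 groups and its mean was at least 2-fold the next group's. This held for 55 of the 181 SLC genes, against a background of 23.6% of the 11033 genes at the same level. Some of the 55, such as SLC6A4, SLC16A7 and SLC1A6, reached a mean of 0.1 only in the group where they were separate. For them the level cut and the separation used the same values, here and in the class counts below. Monocyte/heterophil-like cells held 13 separate SLC genes, red blood cell-like cells 14, thrombocyte-like cells 9, eosinophil-like and basophil-like cells 6 each, T-like cells 4, B-like cells 3 and cytolytic-like cells 0. As a share of the 181 SLC genes this was 7.18% in monocyte/heterophil-like cells, where the share of all genes was 4.32%, and 7.73% in red blood cell-like cells, where it was 6.27%. In thrombocyte-like cells the shares were 4.97% and 4.62%, in eosinophil-like cells 3.31% and 1.90%, in basophil-like cells 3.31% and 2.05%, in T-like cells 2.21% and 1.48%, in B-like cells 1.66% and 1.85% and in cytolytic-like cells 0% and 1.13%. For 11 of the 55 genes the mean was less than 2-fold above every group once groups at 0 were set to their limits, so for these a 2-fold difference from the smallest groups is not shown. They were SLC2A5, SLC35E4, SLC11A1 and SLC6A9 in monocyte/heterophil-like cells, SLC23A1 in B-like cells, SLC19A3, SLC17A6, SLC26A4 and SLC2A2 in thrombocyte-like cells, SLC19A2 in eosinophil-like cells and SLC16A9 in basophil-like cells. The same limit taken in a single library was higher, up to 0.886 per 10000 in basophil-like cells, and was not used for this count. Several separations rest on a library below its own limit, among them those of SLC26A11, SLC43A3, SLC35C2, SLC4A1AP and SLC11A2. The 55 genes are taken below in substrate classes set by SLC family number alone, so a member can carry a substrate of another class. Of the 55, 41 stayed separate in every alternative that held their group. Several alternatives could hardly undo a separation. Leaving out a library or a group cannot make a separate gene overlap, and another alternative only put the copied library in place of library 3. The count of 41 is therefore not a measure of robustness.

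**Figure D1:**
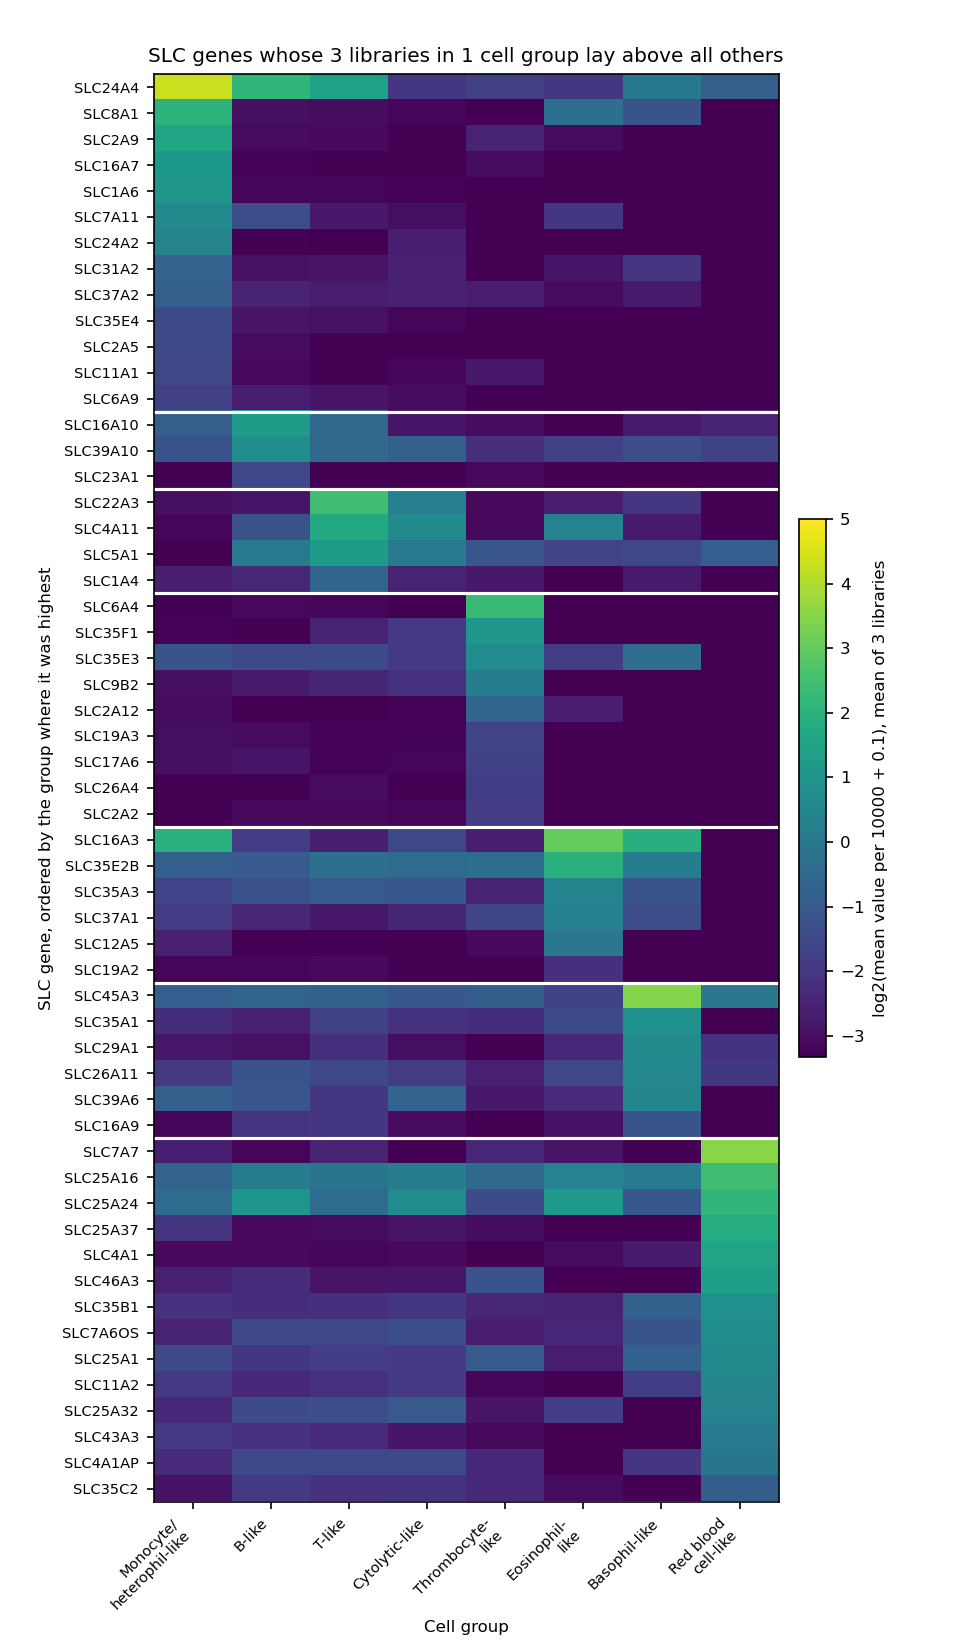
Mean level of the 55 separate SLC genes (rows, ordered by the group in which each is highest) in the 8 cell groups (columns), as colour on the log2(mean level per 10000 + 0.1) scale over 3 libraries. The 13 genes of monocyte/heterophil-like cells, the 9 of thrombocyte-like cells and the 14 of red blood cell-like cells form the largest blocks.

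Of the carriers of amino acids and amines, 7 of 26 at the level were separate (background 23.6%), and the serotonin transporter marked thrombocyte-like cells. SLC6A4, which takes serotonin back into cells (chromosome 19, 6683963 to 6704786, build GRCg7b), was at 4.5, 4.72 and 5.51 per 10000 in thrombocyte-like cells of libraries 1, 2 and 3 (4.91 ± 0.529, SD, n = 3). In no library of any other group was it above 0.019. The mean was at least 22.1-fold above every other group when groups at 0 were set to their limits, and the smallest limma difference was 5.47 on the log2 scale, to B-like cells (adjusted p = 0.000544). Fitted differences to groups at 0 depend on the 0.1 added before the logarithm. SLC6A4 was above 0 in 41.0% of thrombocyte-like cells and in 0.207% of T-like cells, whose median total was the larger (2483 against 1918.5).

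SLC18A2, which loads monoamines into storage vesicles, was shared by 2 groups and so could not be separate. It was at 3.9, 4.2 and 3.92 in thrombocyte-like cells and at 5.02, 2.26 and 3.61 in basophil-like cells. These libraries overlapped between the 2 groups, and every library of the other 6 groups was at or below 0.0538. The gene was above 0 in 36.1% of thrombocyte-like and 45.5% of basophil-like cells and in 0.111% of T-like cells. The thrombocyte markers summed to 4.13 to 6.49 in basophil-like cells against 56 to 63.1 in thrombocyte-like cells, and SLC6A4 was at 0 in all 3 basophil-like profiles.

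Monocyte/heterophil-like cells held the separate amino acid carriers SLC1A6, SLC7A11 and SLC6A9. SLC1A6, a sodium-coupled glutamate transporter known from neurons (chromosome 28, 1110650 to 1139109), was at 1.41, 2.26 and 2.4 in them and at most at 0.0256 in a library of another group. Its mean of 2.02 was at least 9.12-fold above every other group, and its smallest limma difference was 4.23 (adjusted p = 0.0117). Both clusters of the group held it, at 2, 2.73 and 3.11 in the larger cluster and at 0.855, 1.7 and 1.62 in the smaller. SLC7A11, the cystine/glutamate exchanger, was at 1.93, 1.45 and 0.839, where the highest library elsewhere was at 0.621, and it was no longer separate when cells were grouped by the marker gate. SLC6A9, a glycine transporter, was low (mean 0.196) and lost its place when the group was held to its first cluster.

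SLC7A7, the light chain of a plasma membrane exchanger of cationic and neutral amino acids, was at 12.5, 12.2 and 9.84 in red blood cell-like cells. No library of another group passed 0.154, and the mean of 11.5 was at least 52.1-fold above every other group. The limma difference to the nearest group was 6.02 with an adjusted p of 0.0545, so the gene was not called. Its place among the leading genes of the cluster rests on the same values and adds no support. Of the red blood cell-like cells, 57.0% held it. SLC43A3, a carrier of purine bases in human cells, was at a mean of 0.993 in red blood cell-like cells and at 0.159 in the next group, and lost its place with the marker gate and with the study's cell limits. SLC1A4, a neutral amino acid transporter, was highest in T-like cells (0.556), where the next group, B-like cells, was at 0.0875.

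SLC6A6, the taurine transporter, was found in every group. It was at 54, 39.2 and 55.7 in eosinophil-like cells, at 26.6, 25.1 and 26.3 in T-like cells, at 18.9, 19.2 and 24.2 in monocyte/heterophil-like cells and at 7.63, 8.25 and 7.04 in B-like cells. The libraries of these 4 groups did not overlap, and the gene was above 0 in 69.0% to 98.8% of the cells of each of the 8 groups.

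**Figure D2:**
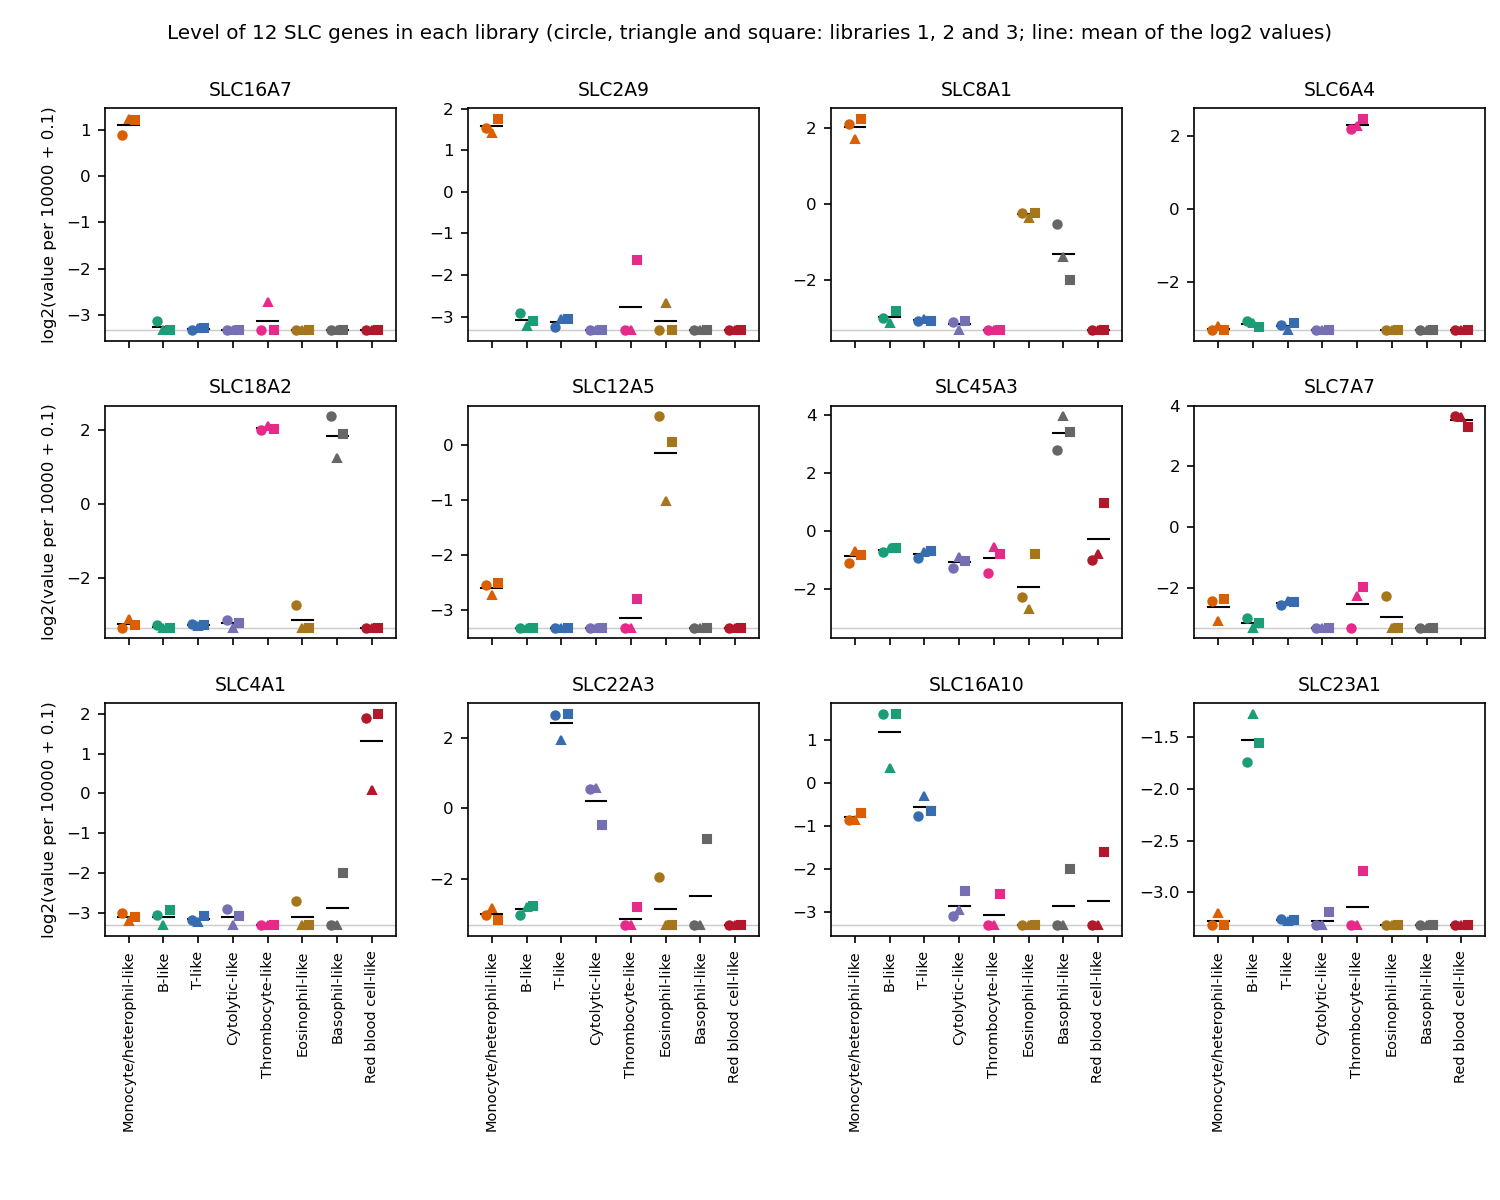
Level of 12 SLC genes in each library of the 8 cell groups, as log2(level per 10000 + 0.1), with a circle, triangle and square for libraries 1, 2 and 3, a line for the mean of the log2 values and a grey line at a level of 0. SLC16A7, SLC2A9 and SLC8A1 stand apart in monocyte/heterophil-like cells, SLC6A4 in thrombocyte-like cells and SLC7A7 and SLC4A1 in red blood cell-like cells, whereas SLC18A2 is high in both thrombocyte-like and basophil-like cells.

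The carriers of inorganic ions had 9 separate genes of 31 at the level (background 23.6%), and 3 of these were sodium/calcium exchangers of monocyte/heterophil-like cells. Such exchangers use the sodium gradient to remove calcium from the cytosol. SLC8A1 (chromosome 3, 15974340 to 16091855) was at 4.19, 3.21 and 4.67 in monocyte/heterophil-like cells and at 0.753, 0.676 and 0.755 in eosinophil-like cells. All 3 libraries lay above every other library, the mean of 4.02 ± 0.745 was 5.52-fold that of eosinophil-like cells, and the limma difference was 2.30 (adjusted p = 0.0366). SLC8A1 was above 0 in 63.0% of monocyte/heterophil-like cells and 0.413% of T-like cells.

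SLC24A2, which also moves potassium, was at 1.36, 0.979 and 1.3 in monocyte/heterophil-like cells and at most at 0.111 in any other library. The mean of 1.21 was at least 5.47-fold above every other group, and the limma difference to the nearest group was 3.06 (adjusted p = 0.0138). Its relative SLC24A4 (chromosome 5, 44170900 to 44256447) was at 18.6, 31.9 and 10.4 in the same group, with library 2 the highest and library 3 the lowest. B-like cells held SLC24A4 at 4.63, 5.41 and 2.97 and T-like cells at 2.66, 3.57 and 1.61, so the gene was separate but far from confined to 1 group. Of the cells, 79.4% of the monocyte/heterophil-like and 46.9% of the B-like had a value above 0, and limma did not call it restricted (adjusted p = 0.209).

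Thrombocyte-like cells held SLC9B2, a sodium/proton exchanger (chromosome 4, 60466931 to 60491046), at 1.21, 0.787 and 1.1. The highest library elsewhere was at 0.139, and the limma difference to cytolytic-like cells, the nearest group, was 2.30 (adjusted p = 0.0178). SLC26A4, an anion exchanger, was at a mean of 0.193 in thrombocyte-like cells, below the limits of the basophil-like and red blood cell-like groups, so its 0 in those groups sets no bound.

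SLC12A5, a potassium/chloride cotransporter best known from neurons, was at 1.34, 0.394 and 0.943 in eosinophil-like cells. Next was the monocyte/heterophil-like group at 0.0716, 0.0502 and 0.0768, and the mean was at least 4.03-fold above every group. A value above 0 was found in 11.3% of eosinophil-like cells (median total 1991) and 1.56% of monocyte/heterophil-like cells (2416). SLC12A5 was not called restricted (adjusted p = 0.439), with library 2 at the low end.

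SLC4A1, the chloride/bicarbonate exchanger of red blood cells known as band 3 (chromosome 27, 2649798 to 2668681), was at 3.63, 0.955 and 3.89 in red blood cell-like cells. No other library was above 0.15, and the mean of 2.83 ± 1.63 was at least 12.8-fold above every other group. The spread between libraries was wide, with library 2 low, and the adjusted p by limma was 0.167. The remaining separate ion carriers were SLC4A11, a membrane transporter of the bicarbonate family, in T-like cells and SLC26A11, a sulfate transporter in human cells, in basophil-like cells (mean 1.36 against 0.335 in B-like cells). SLC26A11 lost its place with the marker gate. Its lowest basophil-like library was at 0.591, and the highest other library, a red blood cell-like one, was at 0.458. Both lay below the limits of those libraries (0.886 and 0.687), so its separation is not secure.

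Among the sugar carriers 8 of 20 at the level were separate (background 23.6%), in 5 different groups. SLC2A9, a facilitative transporter that carries urate in mammals (chromosome 4, 77877007 to 77984737), was at 2.8, 2.59 and 3.3 in monocyte/heterophil-like cells (2.89 ± 0.363, n = 3). In 1 thrombocyte-like library it reached 0.22, and it was lower in all others. The mean was at least 13-fold above every other group, the smallest limma difference was 4.34, to thrombocyte-like cells (adjusted p = 0.0252), and the gene was above 0 in 45.4% of monocyte/heterophil-like cells and 0.239% of T-like cells.

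SLC2A5, a fructose transporter, was at 0.25, 0.259 and 0.251 in monocyte/heterophil-like cells, with 0.0499 as the highest library elsewhere (limma difference to B-like cells 1.60, adjusted p = 0.0395), though with groups at 0 at their limits the mean was at least 1.14-fold above every group. SLC37A2, which exchanges glucose 6-phosphate for phosphate, was at 0.465, 0.494 and 0.461 in the same cells and at a mean of 0.0756 in B-like cells. It was not called restricted (adjusted p = 0.206). Its relative SLC37A1 was instead highest in eosinophil-like cells, at 1.83, 0.789 and 0.849, where the highest other library, at 0.591, lay close below.

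SLC45A3, a proton-coupled carrier with sugars as substrates (chromosome 26, 2259778 to 2298806), was at 6.79, 15.2 and 10.5 in basophil-like cells. Other groups were not free of it, the highest being red blood cell-like cells at a mean of 0.904, and the fold over that group was 12. The groups did not overlap, but with 14 to 26 basophil-like cells a library the adjusted p by limma was 0.369. SLC45A3 was above 0 in 83.6% of basophil-like and 9.99% of T-like cells. The glucose transporters SLC2A12 and SLC2A2 were separate in thrombocyte-like cells, with means of 0.562 and 0.183, of which that of SLC2A2 lay below the limits of the 2 smallest groups. SLC5A1, a sodium/glucose cotransporter, was highest in T-like cells at 1.85, 2.77 and 2, with B-like cells at 0.986, 0.927 and 1.05, and was not separate without library 2. It was nearly absent from monocyte/heterophil-like cells, at 0, 0 and 0.00512.

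Of the carriers of carboxylates and other organic ions, 6 of 19 at the level were separate (background 23.6%), each in a different group. SLC16A7, a monocarboxylate transporter (chromosome 1, 32176090 to 32263603), was at 1.75, 2.27 and 2.21 in monocyte/heterophil-like cells and at most at 0.0525 in another library. The mean of 2.08 ± 0.282 was at least 9.36-fold above every other group, and the smallest limma difference was 4.23 (adjusted p = 0.00676). It was above 0 in 36.0% of these cells and in 0.0318% of T-like cells. SLC16A3, which exports lactate, was at 7.74, 9.19 and 7.55 in eosinophil-like cells and at 3.86, 4.74 and 2.68 in monocyte/heterophil-like cells, 2.17-fold in the mean, and was not separate without library 3.

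SLC16A10, an aromatic amino acid carrier of the same family, was highest in B-like cells at 2.94, 1.17 and 2.93, with T-like cells at 0.49, 0.713 and 0.535. The T-like levels pool unlike cells, and gamma-delta T-like cells, compared below, came close to the lowest B-like library. SLC22A3, an organic cation transporter (chromosome 3, 45099052 to 45125732), was highest in T-like cells at 6.11, 3.74 and 6.28, with cytolytic-like cells at 1.36, 1.38 and 0.613. Neither was called restricted by limma (adjusted p = 0.253 and 0.222). SLC17A6, a vesicular glutamate transporter, was at a mean of 0.213 in thrombocyte-like cells, below the limits of the 2 smallest groups, and SLC16A9 at 0.343 in basophil-like cells, 2.28-fold the level in T-like cells.

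The mitochondrial carriers had 5 separate genes of 26 at the level (background 23.6%), and red blood cell-like cells held all 5. That group also held the most separate genes of any kind, 6.27% of all genes at the level. SLC25A37, mitoferrin, which brings iron into mitochondria for heme synthesis, was at 5.85, 2.39 and 2.06 in red blood cell-like cells. Every other library was at or below 0.167, the mean of 3.43 was at least 15.5-fold above every other group, and the limma difference of 3.73 had an adjusted p of 0.109. SLC25A16 was at 7.46, 1.91 and 6.87 against at most 1.86 elsewhere, a gap that library 2 nearly closed, and was not separate with the marker gate. SLC25A24, an ATP-magnesium/phosphate carrier, was 2.06-fold above eosinophil-like cells and was not separate without library 1, without library 2 or with the marker gate. B-like cells with high SOX5, compared below, held SLC25A24 in every library above the red blood cell-like mean of 4.34. SLC25A1, the citrate carrier, and SLC25A32, a carrier of folate or flavin, were 2.95-fold and 2.99-fold above the next group. These levels are shares of RNA in 79 cells whose other RNA is scarce (median 542 genes a cell), and the part this has in the 14 separate genes of that group was not tested.

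Metal carriers were separate in 5 of 21 cases (background 23.6%). SLC11A1, a phagosomal metal transporter of macrophages, was at 0.262, 0.301 and 0.184 in monocyte/heterophil-like cells, and the highest library elsewhere was at 0.134. SLC31A2, a copper transporter, was at 0.465, 0.51 and 0.553 in the same cells. SLC11A2, which carries ferrous iron out of endosomes in red cell precursors, was at 2.22, 0.477 and 1.14 in red blood cell-like cells. The highest other library was basophil-like library 1, at 0.295. A summed value of 3 corresponds to 0.716 in red blood cell-like library 2 and to 0.886 in that basophil-like library. Both values lay below these limits, so the separation of SLC11A2 is not secure. The zinc importers SLC39A10 and SLC39A6 were highest in B-like cells (mean 1.65, 2.84-fold T-like cells) and in basophil-like cells (mean 1.3, 2.52-fold cytolytic-like cells). SLC39A6 lost its place under another scaling.

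Iron and heme carriers did not all follow SLC25A37. SLC40A1, the iron exporter ferroportin, was at 0.134, 0.315 and 0.198 in thrombocyte-like cells and at 0, 0.477 and 0 in red blood cell-like cells. SLC25A38, the mitochondrial glycine carrier of heme synthesis, was at 0.817, 0.332 and 0.576 in cytolytic-like cells and likewise at 0.477 in a single red blood cell-like library. SLC48A1, a heme transporter, was at 1.82, 0 and 0.229 in red blood cell-like cells. With 24 to 29 such cells a library, the overlap of these 3 genes with other groups does not show that they are alike.

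Of the SLC35 family, 8 of 19 at the level were separate (background 23.6%). In basophil-like cells SLC35A1, which brings CMP-sialic acid into the Golgi, was at 1.48, 1.41 and 2.26, 6.53-fold the mean of eosinophil-like cells. In eosinophil-like cells SLC35E2B was at 3.33, 2.65 and 5.28, 3.64-fold basophil-like cells, and SLC35A3, the carrier of UDP-N-acetylglucosamine, was 3.05-fold T-like cells but was not separate without library 1. Thrombocyte-like cells held SLC35E3 (mean 1.52) and SLC35F1, at 4.23, 0.945 and 0.903 with library 1 far above the other 2 and the highest other library at 0.249. SLC35E4, of no known substrate, was at 0.25, 0.301 and 0.225 in monocyte/heterophil-like cells and was called restricted (limma difference 1.41, adjusted p = 0.0431), and with groups at 0 at their limits its mean was at least 1.17-fold above every group. SLC35B1 and SLC35C2 were highest in red blood cell-like cells, and neither stayed separate with the marker gate.

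The carriers of vitamins and nucleosides had 5 separate genes of 9 (background 23.6%). SLC23A1, a sodium-coupled vitamin C transporter, was at 0.199, 0.314 and 0.241 in B-like cells and at most at 0.0441 elsewhere. SLC29A1, an equilibrative nucleoside transporter, was at 0.886, 1.41 and 2.11 in basophil-like cells, and the highest other library was at 0.403. The thiamine transporters fell to different groups, SLC19A3 to thrombocyte-like cells (mean 0.225) and SLC19A2 to eosinophil-like cells (mean 0.118, not separate without library 3). SLC46A3, a lysosomal carrier, was at 3.23, 1.19 and 2.98 in red blood cell-like cells, 7.55-fold the mean of thrombocyte-like cells. None of the 5 lipid and choline carriers at the level was separate, and the 2 separate genes outside the transporters were SLC7A6OS and SLC4A1AP, both highest in red blood cell-like cells, of which SLC4A1AP was not separate with the marker gate.

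**Figure D3:**
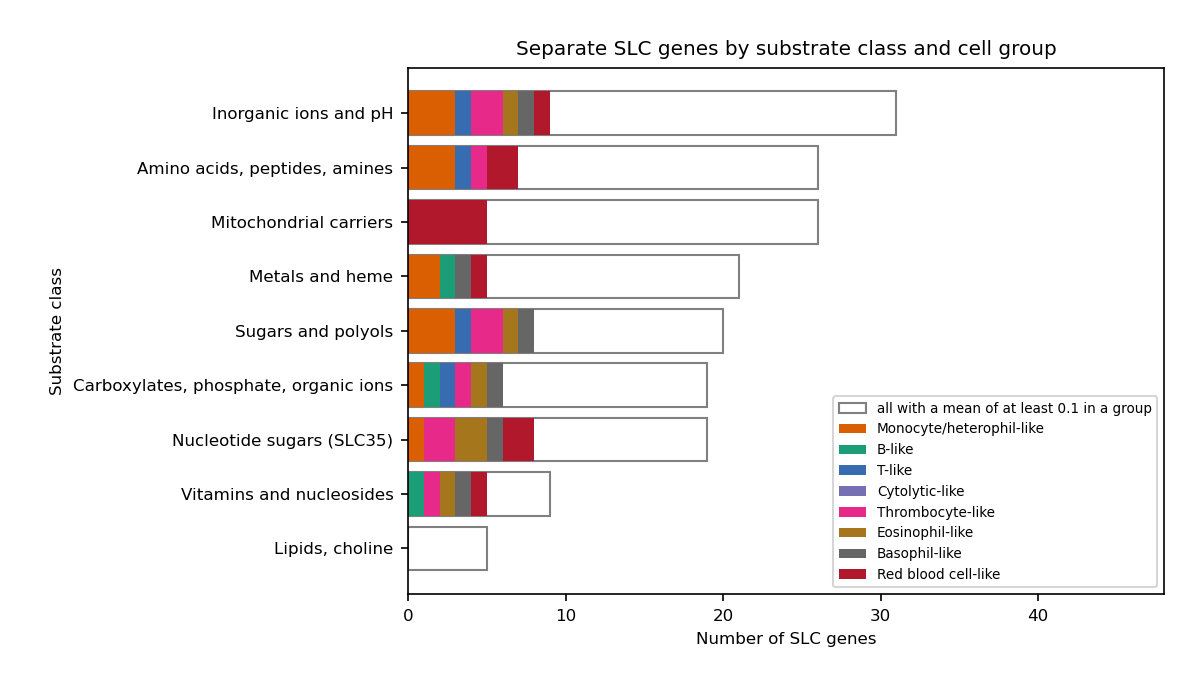
Number of SLC genes in each substrate class, set by SLC family number, with a mean of at least 0.1 in some group (open bars). Within them, the separate genes are coloured by cell group. The 5 separate mitochondrial carriers all belong to red blood cell-like cells, whereas the 6 separate carboxylate carriers fall to 6 groups. Of all genes at the level, 23.6% were separate.

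Monocyte/heterophil-like cells were next compared with lymphocytes, the equal mean of B-like, T-like and cytolytic-like cells. By limma with Benjamini-Hochberg adjustment, 114 of 174 SLC genes differed, 54 higher and 60 lower, where the background of all 10934 genes was 65.2%, 24.2% higher and 41% lower. The median log2 difference was -0.06 over the SLC genes and -0.22 over all genes tested. In this and the later comparisons, genes were tested with a mean of at least 0.05 in any group compared. Some genes, such as SLC16A7 and SLC5A1 here, passed this filter only through the side where they were high. For such genes the filter and the call used the same values. Highest over lymphocytes were SLC8A1, by 5.10 (SE 0.18, adjusted p = 4.41e-09), SLC2A9, by 4.75 (SE 0.16, adjusted p = 4.28e-09), and SLC16A7, by 4.40 (SE 0.16, adjusted p = 5.87e-09). Amino acid carriers were higher in 11 and lower in 6 of 25, among the former SLC7A5, a large neutral amino acid transporter, at 1.69, 2 and 1.47 in monocyte/heterophil-like and 0.299, 0.337 and 0.401 in T-like cells (log2 difference to lymphocytes 3.07, adjusted p = 2.93e-07).

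Lower in monocyte/heterophil-like cells were SLC5A1, which fell by 3.74 (SE 0.16, adjusted p = 2.04e-08), SLC4A11, by -3.56 (SE 0.17, adjusted p = 3.99e-08), and SLC9A7, a sodium/proton exchanger of the Golgi, by -3.22 (SE 0.19, adjusted p = 1.32e-07). SLC9A7 was at 0.215, 0.126 and 0.138 in monocyte/heterophil-like, 2.85, 2.41 and 2.76 in B-like and 4.32, 5.77 and 3.89 in T-like cells, with no overlap. Of mitochondrial carriers 5 were higher and 9 lower of 28, of sugar carriers 7 and 6 of 17, and of metal carriers 7 and 8 of 21. SLC30A1, a zinc exporter (1.82), and SLC2A6, a lysosomal hexose carrier (1.66), were among the higher ones, and SLC38A1, a glutamine carrier (-1.74), among the lower. The median mitochondrial share was 14.5% in monocyte/heterophil-like cells and 10.3%, 7.52% and 12.5% in B-like, T-like and cytolytic-like cells, and its part in these differences was not tested.

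B-like and T-like cells differed in 61 of 154 SLC genes, 23 higher and 38 lower in B-like cells, against a background of 36.2% of all genes, 16.8% higher and 19.4% lower. The balance of directions depended on scaling. Of all genes called, 46.3% were higher in B-like cells, and 51.5% when mitochondrial, ribosomal protein and globin genes were left out of the total. SLC22A3 was at 0.0237, 0.0428 and 0.0461 in B-like cells, where the T-like levels given above were all at least 3.74, and fell by 5.28 (SE 0.18, adjusted p = 2.31e-10, limma). SLC38A6, an amino acid carrier, was at 0.299, 0.15 and 0.256 in B-like and 3.53, 2.94 and 3 in T-like cells (log2 difference -3.30, SE 0.17, adjusted p = 8.75e-09), and cytolytic-like cells held still more, at 5.55, 5.34 and 4.14. SLC4A11 was at 0.308, 0.435 and 0.21 in B-like and 2.91, 3.9 and 2.91 in T-like cells (-3.02, SE 0.19, adjusted p = 5.82e-08). In all 3 genes the lineages did not overlap.

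The endosomal sodium/proton exchanger SLC9A9 (-2.86), the monoamine transporter SLC29A4 (-2.48), SLC6A6 (-1.76) and SLC7A5 (-1.65) were also lower in B-like cells, and so were 5 of 18 SLC35 genes, none of which was higher. Higher in B-like cells was SLC22A16, a carnitine transporter, at 0.408, 0.335 and 0.302 in B-like and at 0.00157, 0 and 0.00342 in T-like cells (log2 difference 2.13, SE 0.13, adjusted p = 6.35e-08). SLC16A10 (1.76, SE 0.28, adjusted p = 0.000272) and SLC23A1 (1.75, SE 0.14, adjusted p = 7.63e-07) followed. SLC22A16 and SLC23A1 reached the filter mean of 0.05 only in B-like cells, and SLC22A3 only in T-like cells. For them the filter and the call used the same values. Without library 3 the count over SLC genes was 37, all among the 61, as the background fell to 24.3%.

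**Figure D4:**
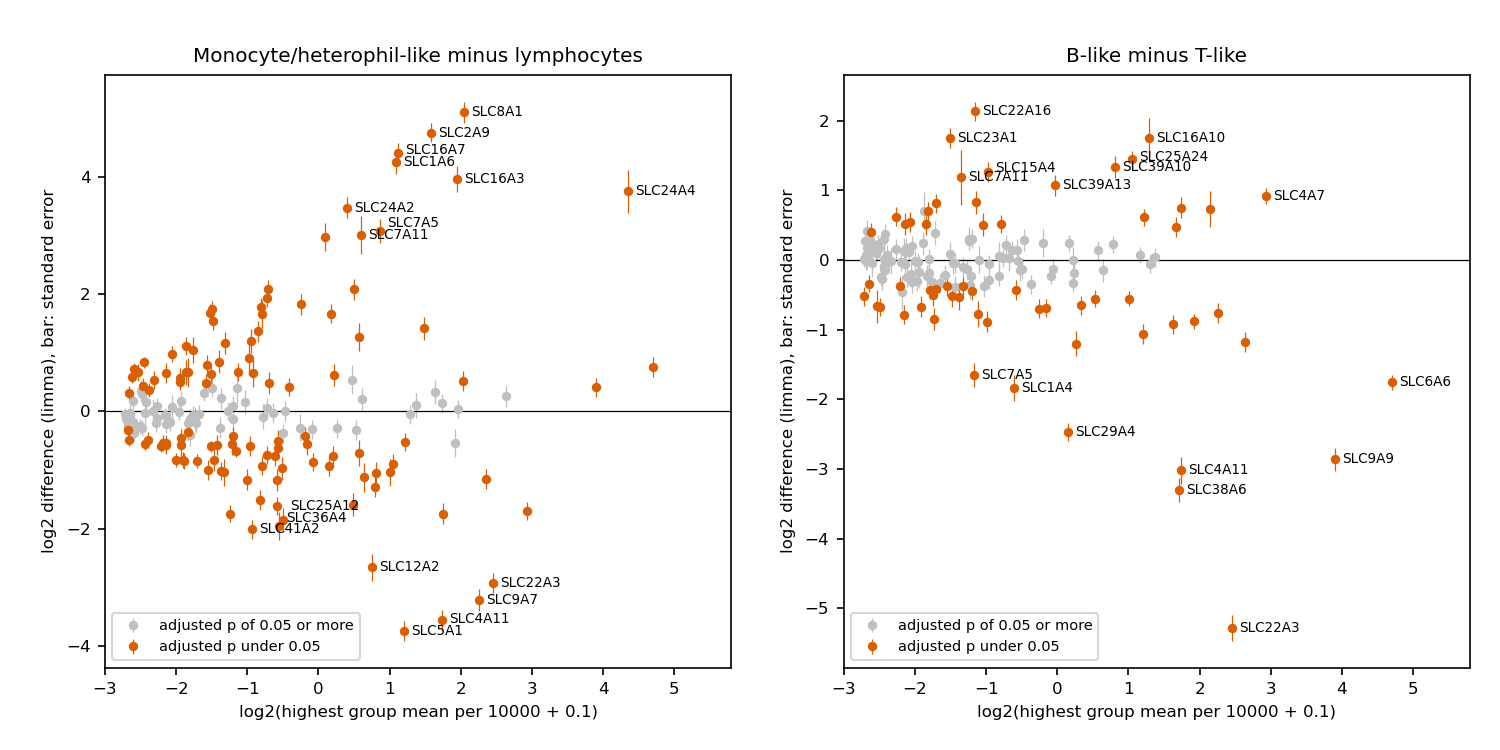
Log2 difference of each tested SLC gene (limma, bars: standard error, 3 libraries a group) against its highest group mean on the log2(mean level per 10000 + 0.1) scale, for monocyte/heterophil-like cells minus lymphocytes (left) and B-like minus T-like cells (right), orange where the adjusted p was under 0.05. SLC8A1 lies highest on the left at 5.10 and SLC22A3 lowest on the right at -5.28.

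Within T-like cells, 2413 gamma-delta T-like and 2578 CD4 T-like cells were compared. Of 144 SLC genes 36 differed, 17 higher and 19 lower in gamma-delta T-like cells, with a background of 17.8% of all genes, 9.67% higher and 8.13% lower. With hen as a block the count was 55, which held all 36, as the background rose to 28.7%, and without library 3 it was 17, as the background fell to 9.57%. Without libraries 1 and 2 in turn it was 25 and 29 (background 10.7% and 16.7%). SLC24A4, the exchanger that led in monocyte/heterophil-like cells, was at 7.47, 7 and 4.17 in gamma-delta T-like and at 0.149, 0.0988 and 0.128 in CD4 T-like cells. This was a log2 difference of 4.77 (SE 0.20, adjusted p = 1.5e-09, limma), and 49.4% of gamma-delta T-like against 2.44% of CD4 T-like cells had a value above 0.

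SLC16A10 followed, at 1.12, 1.15 and 1.06 against 0.125, 0.227 and 0.166 (2.16, SE 0.16, adjusted p = 5.07e-07), and SLC7A5, at 0.671, 0.623 and 0.873 against 0.118, 0.0297 and 0.136 (2.11, SE 0.22, adjusted p = 1.22e-05). SLC22A3 went the other way, at 1.62, 0.824 and 1.15 in gamma-delta T-like against 8.63, 6.29 and 10 in CD4 T-like cells (-2.72, SE 0.22, adjusted p = 9.2e-07). The ion cotransporter SLC12A2, at 0.625, 0.777 and 0.664 against 1.43, 1.76 and 1.36, and the zinc transporter SLC30A4, at 0.106, 0.154 and 0.181 against 0.434, 0.415 and 0.358, were both lower by -1.03 (adjusted p = 0.000196 and 0.000587). These 6 genes passed the threshold without each library in turn. By class, 5 of 18 metal carriers were lower and 1 higher, and 3 of 24 mitochondrial carriers were lower and 0 higher.

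CD8 T-like cells (743) differed from CD4 T-like cells in 9 of 142 SLC genes, 5 higher and 4 lower, where the background was 6.91% of all genes, 3.75% higher and 3.16% lower. With hen as a block 17 were called, all 9 among them (background 10.2%), and without library 1, 2 or 3 the counts were 3, 5 and 5 (background 3.54%, 5.23% and 3.56%). SLC9A7 was at 2.2, 2.05 and 1.94 in CD8 T-like and 4.62, 5.94 and 4.15 in CD4 T-like cells, a log2 difference of -1.20 (SE 0.15, adjusted p = 0.000141, limma). SLC29A4, which carries monoamines and other organic cations, was at 0.111, 0.234 and 0.119 against 0.736, 0.514 and 0.529 (-1.46, SE 0.23, adjusted p = 0.000817). Of the 9, SLC9A7 and SLC29A4 were called without each of the 3 libraries.

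SLC4A2, an anion exchanger, was at 0.0278, 0.0585 and 0.106 in CD8 T-like and 0.261, 0.217 and 0.196 in CD4 T-like cells (-1.01, SE 0.23, adjusted p = 0.013). SLC29A1 was higher in CD8 T-like cells, at 0.348, 0.117 and 0.251 against 0.0174, 0.00988 and 0.0426 (1.40, SE 0.26, adjusted p = 0.00364), and lost the call without library 1. SLC24A4, at 0.376, 0.585 and 0.225 in CD8 T-like cells, was higher by 1.08 (SE 0.26, adjusted p = 0.0184) but lost the call without library 1 and without library 2. The facilitative hexose carrier SLC2A11L5 was at 0.0835, 0.175 and 0.238 against 0.0417, 0.0198 and 0.0341 (0.97, SE 0.24, adjusted p = 0.0238) and lost it without library 2 and without library 3. SLC29A1 and SLC2A11L5 reached the filter mean of 0.05 only in CD8 T-like cells, so for them the filter and the call used the same values. SLC22A3 was at 11.8, 10.2 and 11.5 in CD8 T-like cells, above each CD4 T-like library, and was above 0 in 82.2% of CD8, 72.3% of CD4 and 17.8% of gamma-delta T-like cells and in 0.748% of B-like cells.

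B-like cells with high SOX5 (177 cells) differed from the other 2096 B-like cells in 16 of 163 SLC genes, 8 in each direction, where the background was 10.9% of all genes, 5.28% higher and 5.67% lower. SLC4A4, a sodium bicarbonate cotransporter, was at 1.32, 1.42 and 0.609 in SOX5 B-like and 0.0757, 0.0853 and 0.161 in other B-like cells (log2 difference 2.50, SE 0.34, adjusted p = 0.00127, limma). SLC25A24 was at 6.07, 6.49 and 5.2 against 1.84, 1.54 and 1.44 (1.82, SE 0.18, adjusted p = 0.000178). The glucose transporter SLC2A14 was at 8.56, 8.09 and 7.87 against 3.33, 2.16 and 2.32 (1.64, SE 0.19, adjusted p = 0.000503). In each of the 3 genes all SOX5 B-like libraries lay above all others.

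Lower in SOX5 B-like cells were SLC9A9, at 0.622, 0.178 and 0.234 against 2.19, 1.56 and 2.67 (-2.43, SE 0.36, adjusted p = 0.00187), and SLC43A2, a neutral amino acid carrier, at 0.545, 0.8 and 0.328 against 3.24, 2.58 and 2.61 (-2.20, SE 0.27, adjusted p = 0.000667). SLC5A1 was also lower, at 0.156, 0.355 and 0.281 against 1.04, 0.977 and 1.15 (-1.70, SE 0.27, adjusted p = 0.00295). The metal carrier SLC39A8 (1.30) and the glucose transporter SLC2A1 (1.46) were among the higher genes. The counts were 7, 8 and 2 without library 1, 2 and 3 (background 3.65%, 6.22% and 1.40%), and without library 3 the calls were SLC4A4 and SLC25A24. SLC25A24 was called without each library, and every one of the 16 kept its direction.

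**Figure D5:**
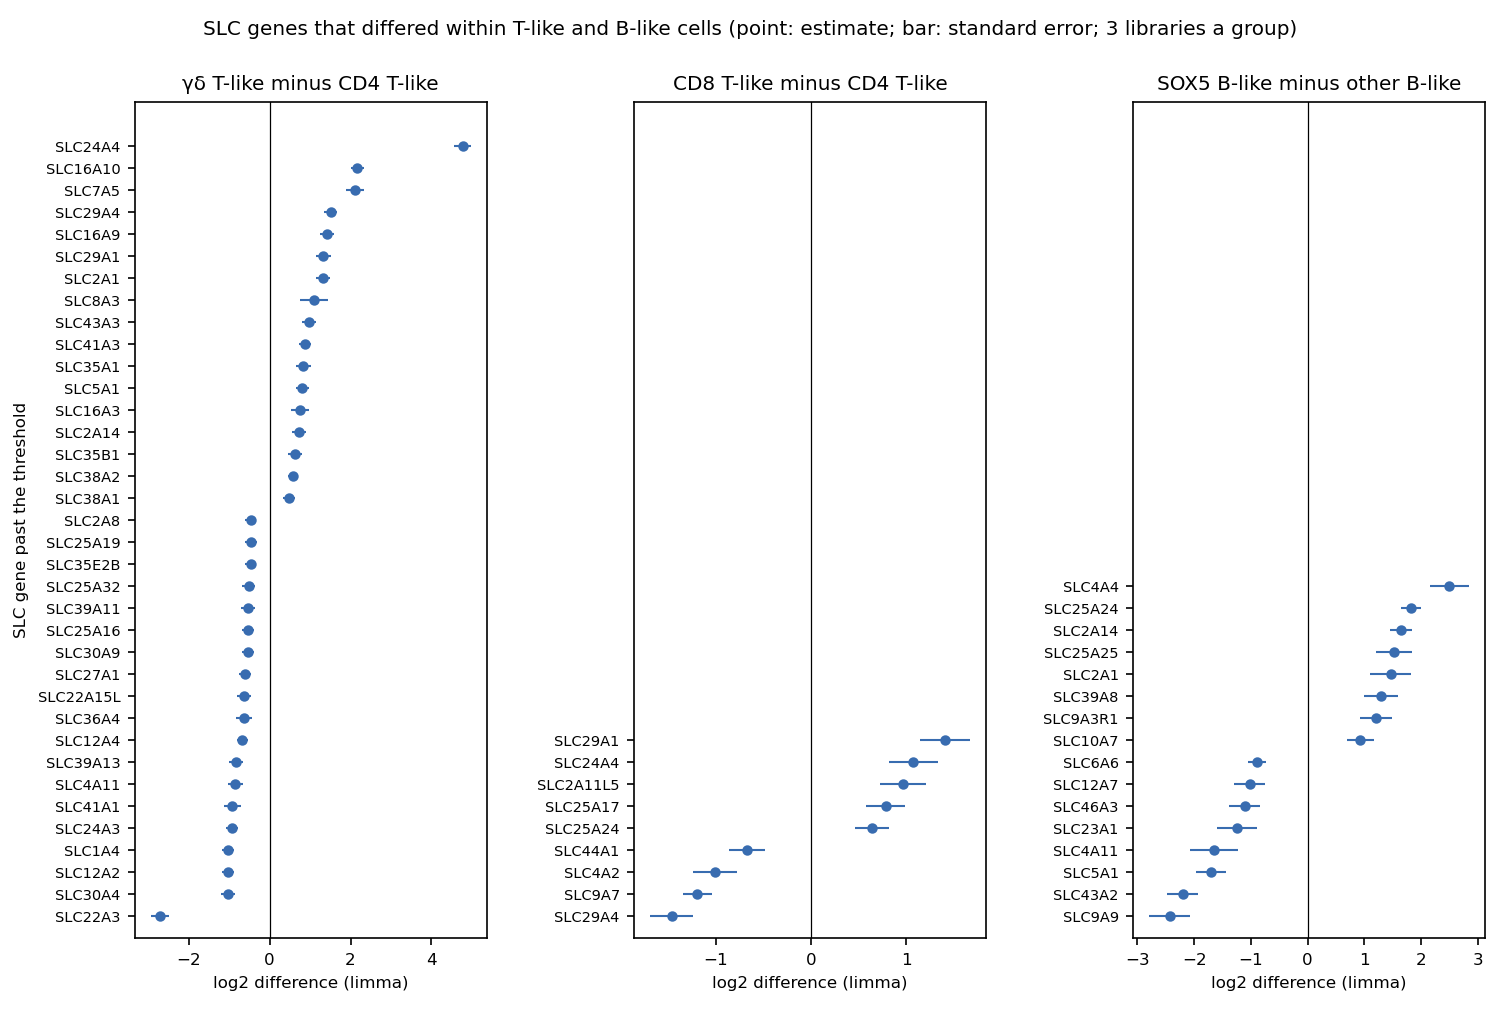
Log2 difference of each SLC gene past the threshold (limma, points: estimate, bars: standard error, 3 libraries a group) between gamma-delta and CD4 T-like cells (36 genes), CD8 and CD4 T-like cells (9 genes) and SOX5 B-like and other B-like cells (16 genes). SLC24A4 lies at 4.77 and SLC22A3 at -2.72 in the first comparison.

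Other membrane transporters and partner genes were read in the same way for reference. Of 33 ABC transporters, 27 were at the level and 9 of these were separate, among them ABCA9 in monocyte/heterophil-like cells (mean 3.96), ABCC3 in eosinophil-like cells (4.46) and ABCA5 in thrombocyte-like cells (2.83). Of 5 SLCO organic anion transporters 2 were separate, SLCO2B1 in monocyte/heterophil-like and SLCO4C1 in eosinophil-like cells. Of 8 sodium, potassium and calcium pumps 2 were separate, ATP2A3, a calcium pump of the endoplasmic reticulum, in thrombocyte-like cells (12.9) and ATP2B2 in T-like cells (0.380). Among 12 genes of carrier partners and iron handling, 4 were separate: FTH1, a ferritin chain, in red blood cell-like cells (214), HMOX1, which breaks down heme, in monocyte/heterophil-like cells (5.63), TFRC, the transferrin receptor, in basophil-like cells (2.87) and CP, a ferroxidase, in thrombocyte-like cells (0.979). Against lymphocytes, monocyte/heterophil-like cells were higher in 7 and lower in 1 of the 9 partner genes tested, and higher in 8 and lower in 11 of 29 ABC transporters. The background over all genes was 24.2% higher and 41% lower in this comparison, and 23.6% of the genes at the level were separate. These lists were not compared with the SLC genes by a test.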

How the data were processed

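Blood leukocytes of laying hens were measured by droplet single-cell RNA-seq. The authors counted reads with Cell Ranger on build GRCg7b, filtered cells (including doublets) and corrected counts for depth with Seurat. The submitters' notes give Cell Ranger 1.2.0, while the methods of the study name a different version. The deposited values are whole-number scores, so no count model was used. The fourth library, a copy of the third, was left out. Cells of libraries 1 to 3 (12042 in all) were clustered in Seurat 5.3.0 (R 4.3.3; 3000 features without SLC and marker genes, 27 components, resolution 0.8); clusters with at least 3 markers at 2-fold or more in 5% of cells were named, and 2 of 21 clusters (88 cells) stayed unnamed. Gene identities came from the RefSeq table of GRCg7b, which held all 233 SLC genes. Profiles of at least 10 cells were scaled to 10000 and tested with limma 3.58.1 (trend) on log2(level + 0.1) for genes with a mean of at least 0.05, with Benjamini-Hochberg adjustment over all genes tested at 0.05. The test was checked on simulated data. There the restriction rule recovered 4% to 17% of the genes raised in 1 group by 2 on the log2 scale. Of those raised by 4 it recovered 11% to 48%, so the lack of a restriction call does not show that a gene is not restricted. In the simulated pair comparisons, false calls were 17 of 184 for monocyte/heterophil-like cells against lymphocytes and 16 of 196 for B-like against T-like. They were 7 of 184 for gamma-delta against CD4, 12 of 164 for CD8 against CD4 and 6 of 80 for the SOX5 comparison. Simulated profiles were drawn independently, without the correlation between profiles of the same hen.

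Members, lists and tests were chosen with earlier results of these data known. Genes were named as the top 4 restricted genes a group, the highest of each substrate class, textbook carriers, and the top 3 in each direction of a comparison. The separate genes, all named, and other genes outside this rule were chosen after their values were seen. Profiles of the same hen deviated together within lymphocytes (correlations 0.39 to 0.77 for gamma-delta and CD4 T-like, 0.24 to 0.51 for CD8 and CD4, 0.36 to 0.44 for B-like and T-like, 0.14 to 0.22 for SOX5 B-like and other B-like cells), but not throughout between monocyte/heterophil-like and T-like (-0.35 to 0.05), B-like (-0.0034 to 0.42) or cytolytic-like cells (-0.086 to 0.56). The pairing comes from the labels, where each number is 1 hen. Alternatives were a hen block, leaving out each library, a marker gate, other pseudocounts, other filters, other clustering resolutions, another scaling, the study's cell limits and fits over other groups.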

Additional observations from a re-analysis of the deposited data

How the results depend on the processing

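No SLC call reversed its direction, though 4 calls could not be read again because the gene fell under the filter on low levels. They were SLC41A3 and SLC25A29 for monocyte/heterophil-like cells against lymphocytes without libraries 2 and 3, and SLC35F1 and SLC35F3 for B-like against T-like cells without libraries 2 and 3. In a tally of alternatives for single differences, 3083 gave the same call, 44 gained it and 127 lost it. The tally does not cover every SLC call, as the counts below hold more lost calls. The 9 restricted SLC genes became 5 with no filter on low levels, 0 with hen as a block, 1 with the marker gate, 39 in 1 fit over all groups and 0 without each replicate in turn (0 to 0). An alternative added after the data were seen, without the basophil-like and red blood cell-like groups, gave 16 (background 7.83%). With the block as well it gave 7 (background 1.80%). The 55 separate SLC genes ranged from 50 with the marker gate to 67 without replicate 2. Without replicate 1 or 3 they were 66, where 2 libraries a group overlap less easily. The share of all genes that were separate under these alternatives is not given here, so these counts have no background. Leaving out each replicate called 86 to 109 SLC genes for monocyte/heterophil-like cells against lymphocytes (114 with all libraries, 85 to 103 of these called again), 37 to 57 for B-like against T-like (61, 37 to 50 again), 17 to 29 for gamma-delta against CD4 (36, 17 to 26 again), 3 to 5 for CD8 against CD4 (9, 3 to 5 again) and 2 to 8 for the SOX5 comparison (16, 2 to 7 again). The share of all genes called moved with these counts, from 51.0% to 61.0%, 24.3% to 33.2%, 9.57% to 16.7%, 3.54% to 5.23% and 1.40% to 6.22% in the same order. The hen block gave 55 for gamma-delta against CD4, 17 for CD8 against CD4, 24 for the SOX5 comparison and 71 for B-like against T-like cells, with 28.7%, 10.2%, 14.6% and 42.4% of all genes. For CD8 against CD4 the count was 4 with no filter, where the background is not given here, and 3 with the marker gate (background 3.29%). Reasons for these changes were not tested. The 55 basophil-like and 79 red blood cell-like cells limit any statement on a level near 0 in those groups: SLC6A9, SLC17A6, SLC26A4, SLC2A2 and SLC19A2 lay below a limit there.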

Other observations

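Cells of a proliferating-like group (162 cells, 26 to 79 a library) entered no comparison. In them SLC25A5, an ADP/ATP carrier of mitochondria, was at 2.08, 1.96 and 1.29 per 10000 in libraries 1, 2 and 3, above every library of the 8 groups, the highest of which was at 0.687. SLC25A3, the mitochondrial phosphate carrier, was at 2.98, 2.61 and 1.9. SLC25A6, a second ADP/ATP carrier, was at 4.62, 3.27 and 2.69 there and overlapped with basophil-like cells, at 5.31, 2.82 and 4.51. These values were chosen after they were seen and were not tested.

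Of the SLC genes, 10 pairs lay within 50 kb of each other in GRCg7b. Both genes had their highest mean in the same group in 2 of the 10, and the share among pairs of other genes was not computed. These 2 pairs held low levels. SLC25A29 (0.0944) and SLC25A47 (0.104) were highest in thrombocyte-like cells. SLC35B2, paired with SLC29A1, was at 0.149 in basophil-like cells, below the limit of that group (0.221). SLC4A1 was highest in red blood cell-like cells and SLC25A39, 8435 bases away on chromosome 27, in basophil-like cells. SLC45A3 and SLC41A1, 21903 bases apart on chromosome 26, peaked in basophil-like and monocyte/heterophil-like cells. SLC25A39 and SLC41A1 were not separate, as their libraries overlapped with those of other groups, so their highest group is not settled.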
